A study of Mus musculus with 2 samples.

Results

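Collagens are the structural proteins of the extracellular matrix, and their transcripts were followed here through the cell types of 1 droplet library of newborn mice. The labelled groups of that library are liver and heart cells, and the organ of most other cells in it is not known. The members are the 44 gene features whose symbol has the form Col, number, a, number, out of 21951 gene features, and all of them are described below or accounted for in counts. The rule reads symbols alone, but it was chosen with earlier results of these data known.

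The study compared Cdh5-CreERT2 mice carrying iSuRe-Cre, an allele that keeps Cre and the membrane reporter MbTomato expressed after recombination, or iSuRe-HadCre, an allele that expresses Cre transiently before the reporter is switched on, with control mice. Per the labels the mice were C57BL/6, received 4-hydroxytamoxifen at postnatal day 3 (40 mg/kg), and were collected 3 days later, at P6-P7. Floxed Notch1 in the iSuRe groups is known only from the study itself, and the sources used here do not state the control genotype or how many pups each group held. CreERT2 is driven by the Cdh5 promoter, which is active in endothelium. Liver and heart cells of each genotype received 1 of 6 antibody hashtags (short barcodes read with the transcriptome), were sorted as CD31+ MbTomato+ cells and were loaded together, so that each of the 6 groups is 1 sample.

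A collagen molecule is a trimer of alpha chains, and the classes differ in what they build. Fibrillar collagens (I, II, III, V, XI) form the fibrils of skin, tendon and cartilage, whereas collagen IV forms the network of basement membranes, which endothelial and epithelial cells lay down beneath themselves. Multiplexins (XV and XVIII) sit at basement membranes, FACIT collagens such as IX, XII and XIV decorate fibrils, collagen VI forms beaded microfibrils, and collagens XIII, XVII, XXIII and XXV span the plasma membrane.

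Of 2755147 barcodes, 14348 had 2000 to 75000 gene UMIs (unique molecular identifiers, each standing for 1 captured transcript), more than 500 genes and under 5% of mitochondrial and of haemoglobin UMIs. Endothelial groups were the barcodes of these with 1 hashtag at its minimum, the others below theirs, and Cdh5 above 0.9 on a natural log scale. They held 54 cells in control liver, 858 in iSuRe-Cre liver, 76 in iSuRe-HadCre liver, 254 in control heart, 435 in iSuRe-Cre heart, 311 in iSuRe-HadCre heart and 1988 in all. Non-endothelial cells were gated by at least 3 UMIs of 1 of 5 markers, under 3 of the other 4 and 0 of Cdh5, which gave 201 Krt5 cells, 130 Matn4 cells, 927 Prrx1 cells, 47 Myh11 cells and 15 Prph cells. Only 50 of the 1320 gated cells reached a hashtag minimum, so their organ and genotype are not known. Median depth per cell ranged from 7322 UMIs in iSuRe-HadCre heart to 21109 in Krt5 cells. Levels below are a gene's UMIs per 1000000 gene UMIs (CPM), summed over the cells of a group, with exact 95% Poisson intervals for counting error alone. Because every group is 1 sample, no test and no p-value can be given.

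Marker genes were checked against the labels. Notch1, the targeted gene, was at 160 CPM in control liver and 138 in control heart, against 12.6 to 30.7 in the 4 iSuRe groups. Stab2, a scavenger receptor of liver sinusoids, had a UMI in 618 of 858 cells of iSuRe-Cre liver and 24 of 76 of iSuRe-HadCre liver, but in 12 of 54 of control liver, so the cells under the control liver hashtag were mostly without it. Whether that hashtag marks the tissue its label gives is in doubt and was not tested, and every ratio to control liver rests on it. Since a gate fixes its own marker, marker lists were summed without the 5 gating genes. Of 12 such lists the highest was then the keratinocyte list in Krt5 cells (3586 CPM), the chondrocyte list in Matn4 cells (1789), the mesenchymal list in Prrx1 cells (1489), the smooth muscle list in Myh11 cells (11397) and the peripheral neuron list in Prph cells (9542). Matn4 cells were mixed, since 62 of 130 had a UMI of Acan, the aggrecan of cartilage, and 25 had Fabp7, a glial and neural progenitor gene. Free RNA, read from 24194 barcodes of 10 to 100 UMIs, held collagens too. Its share was estimated from hepatocyte markers in heart groups and from cardiomyocyte markers in liver groups. It came to 2.04% to 19.4% of the UMIs in the endothelial groups. By other lists some estimates are too high. Hepatocyte markers were at 4920 CPM in free RNA, but at 76.1 in iSuRe-HadCre liver (19.4%) and 103 in control liver (5.91%). Neutrophil markers were at 1149 CPM in free RNA, but at 20.8 in iSuRe-Cre heart (15.1%).

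Sequence around the start sites was taken from RefSeq on GRCm38.p6, which had an entry for 35 of the 44 collagens, with 38 start sites. Col4a1 and Col4a2 are transcribed away from each other on chromosome 8, Col4a1 from the minus strand (11198423 to 11312826) and Col4a2 from the plus strand (11312805 to 11449287), and their annotated 5′ ends overlap by 22 bases. Whether the counting used strand is not given in the sources used here. That shared stretch, chr8:11312805-11312826 on the plus strand, is shown because both chains lead the endothelial groups, with the GC box GGGCGG in capitals.
Col4a1 and Col4a2 overlap: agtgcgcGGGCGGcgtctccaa

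The 250 bases before the start of 1 collagen each whose highest level was in Prrx1 cells (Col3a1, chr1:45311288-45311537), Matn4 cells (Col11a1, chr3:114030290-114030539) and an endothelial group (Col15a1, chr4:47207762-47208011) follow. All are on the plus strand, with 3 promoter motifs in capitals on either strand. They are the CCAAT box, written ATTGG on the other strand, the GC box GGGCGG, whose reverse complement is CCGCCC, and the TATA box letters TATAAA, whose reverse complement is TTTATA. The motifs do not overlap one another in these windows. Col3a1 holds the TATA box letters 1 time, 117 bases before the start. Col11a1 holds 1 CCAAT box and 2 GC boxes, and the window of Col15a1 holds none of the 3.
Col3a1: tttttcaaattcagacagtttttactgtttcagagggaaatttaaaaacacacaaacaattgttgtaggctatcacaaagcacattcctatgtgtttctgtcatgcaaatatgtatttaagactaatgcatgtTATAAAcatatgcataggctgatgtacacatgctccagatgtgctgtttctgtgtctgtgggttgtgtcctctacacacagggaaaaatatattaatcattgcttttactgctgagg
Col11a1: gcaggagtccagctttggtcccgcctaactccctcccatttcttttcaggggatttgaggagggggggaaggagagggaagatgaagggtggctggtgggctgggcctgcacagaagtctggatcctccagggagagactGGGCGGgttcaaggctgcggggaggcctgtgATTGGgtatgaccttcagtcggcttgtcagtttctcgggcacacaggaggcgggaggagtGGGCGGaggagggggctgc
Col15a1: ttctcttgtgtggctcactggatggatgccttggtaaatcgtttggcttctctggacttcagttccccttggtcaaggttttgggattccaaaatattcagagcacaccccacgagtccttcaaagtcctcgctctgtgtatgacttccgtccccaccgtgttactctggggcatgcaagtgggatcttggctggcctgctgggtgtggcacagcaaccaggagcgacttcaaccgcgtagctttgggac

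Over all 38 collagen start sites, the GC box was present in 22 (57.9%), against 32.7% of the 32851 start sites in the table, each in a window of the same length. The CCAAT box was present in 13 (34.2%, against 33.8%) and the TATA box letters, at any place in the window, in 5 (13.2%, against 12.4%). These are descriptions of the windows, with no test. In GENCODE on GRCm38 8 pairs of collagen genes are direct neighbours, among them Col4a4 and Col4a3 on chromosome 1, which start 71 bases apart on opposite strands, Col4a6 and Col4a5 on X, 1308 bases apart in the same arrangement, Col3a1 and Col5a2, whose ends face each other across 24614 bases, and Col9a1 and Col19a1, 9205 bases apart.

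Collagen IV led the collagen transcripts of the endothelial groups and of Krt5 cells, and fibrillar collagens those of the other 4 gates. Summed over the 44 genes, collagens made up 8258 CPM in Matn4 cells, 5954 in Prrx1 cells, 4417 in Myh11 cells, 2057 to 4981 in the 6 endothelial groups, 940 in Krt5 cells and 292 in Prph cells. Collagen IV took 48.5% to 53.7% of the collagen UMIs in the 3 liver groups and 74.5% to 75.2% in the 3 heart groups, 29.7% in Krt5 cells, 3.80% in Prrx1 cells and 2.69% in Matn4 cells. Fibrillar collagens took 74.3% in Prrx1 cells, 66.0% in Prph cells, 63.5% in Myh11 cells and 57.4% in Matn4 cells. FACIT collagens were the next class of Matn4 cells, with 32.3%, and multiplexins held 16.7% in Krt5 cells. In free RNA the collagen UMIs were 50.5% fibrillar and 23.4% collagen IV.

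**Figure D1:**
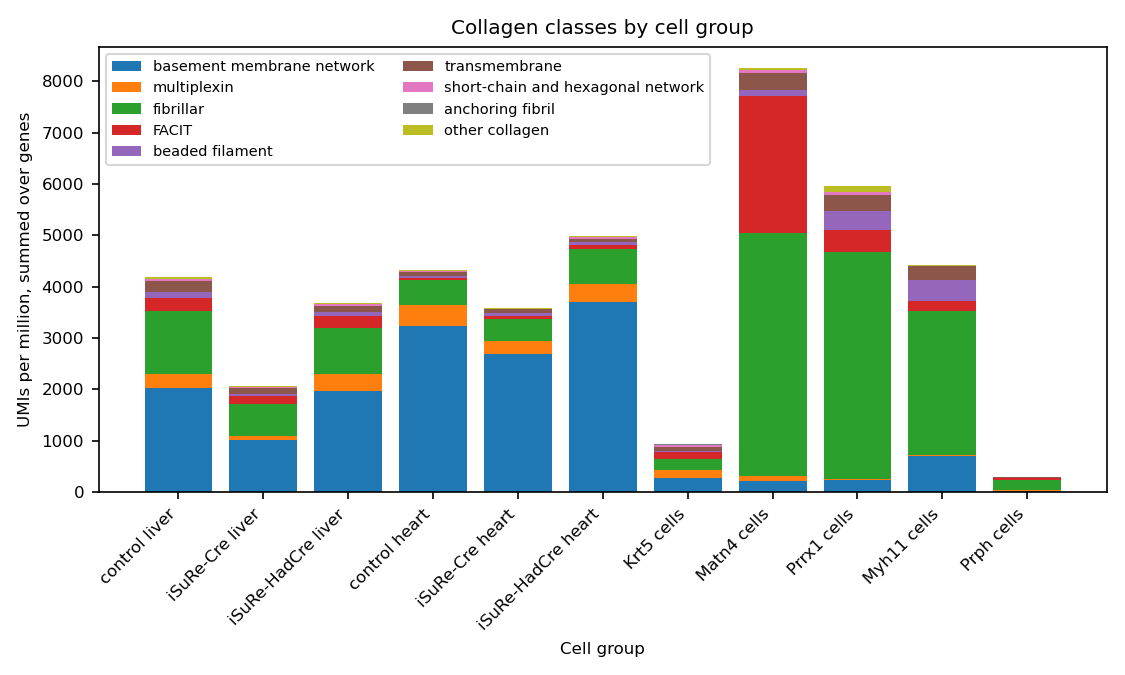
Stacked bars give the summed level (CPM, axis from 0) of the collagen classes in each of the 11 cell groups. Collagen IV fills most of the heart endothelial bars (74.5% to 75.2%), fibrillar collagens most of the Prrx1 bar (74.3%), and Matn4 cells have the tallest bar, at 8258 CPM.

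Of the 44 collagens, 40 reached 10 CPM in at least 1 of the 11 groups and 30 in at least 1 endothelial group. Col5a3, Col6a4, Col6a5 and Col10a1 stayed below 10 CPM in every group. Ranked by each gene's highest level, Col4a1 came first, in iSuRe-HadCre heart (2484 CPM), followed by Col2a1 (1725) and Col11a1 (1549) in Matn4 cells and Col4a2 in iSuRe-HadCre heart (1202). Next came Col1a2, Col1a1 and Col3a1 in Prrx1 cells, then Col9a3, Col9a1 and Col9a2 in Matn4 cells, Col5a2 in Prrx1 cells and Col25a1 in Matn4 cells. Since each UMI stands for 1 transcript these levels do not scale with transcript length, although genes can differ in how well they are captured, which was not measured.

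**Figure D2:**
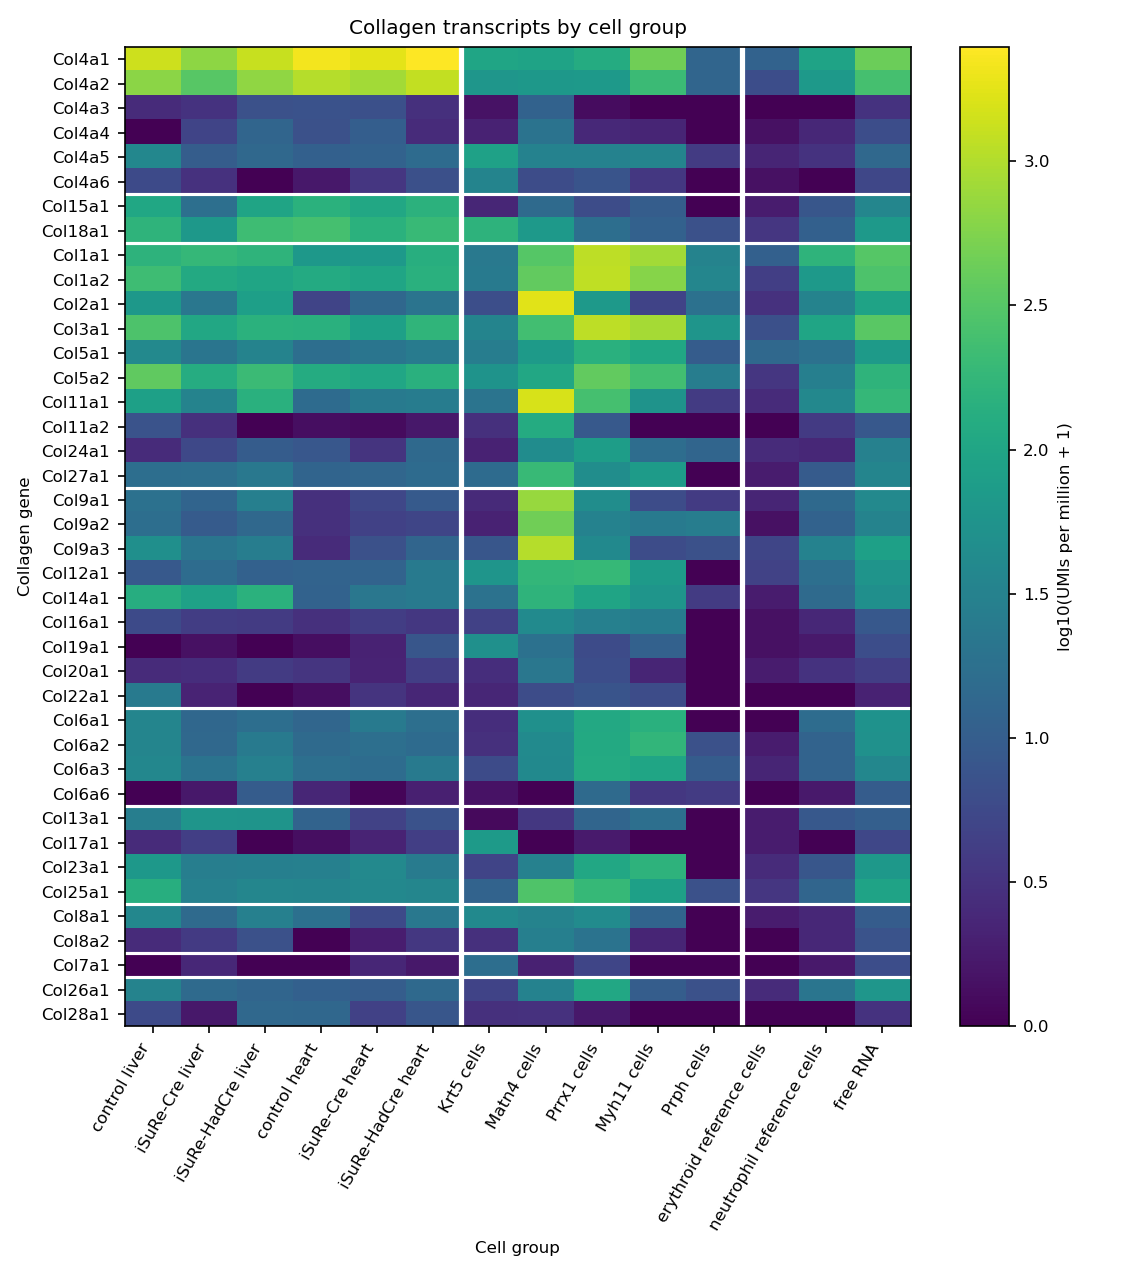
Colour gives log10(CPM + 1) of the 40 collagens that reached 10 CPM in at least 1 group (vertical axis) in the 11 cell groups. The last columns (horizontal axis) are erythroid and neutrophil reference cells, described below, and free RNA. Col4a1 and Col4a2 are bright across the endothelial columns, Col1a1, Col1a2 and Col3a1 in the Prrx1 and Myh11 columns, and Col2a1, Col11a1 and the collagen IX genes in the Matn4 column.

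Among the 35 collagens with at least 200 UMIs over the 11 groups, 12 were highest in Matn4 cells and 11 in Prrx1 cells, where 7.94% and 7.09% of all 11672 such genes were highest. The gates were chosen with earlier results of these data known, so these counts are descriptions. The Matn4 set holds the collagen II, IX and XI genes of cartilage (Col2a1, Col9a1, Col9a2, Col9a3, Col11a1, Col11a2) with Col4a4, Col8a2, Col14a1, Col16a1, Col25a1 and Col27a1. The Prrx1 set is Col1a1, Col1a2, Col3a1, Col5a1, Col5a2, Col6a3, Col6a6, Col8a1, Col12a1, Col24a1 and Col26a1. Krt5 cells were highest for 4 (Col4a5, Col4a6, Col17a1, Col19a1; background 9.9%), Myh11 cells for 3 (Col6a1, Col6a2, Col23a1; 9.91%) and Prph cells for 0, although 22.3% of all genes were highest there. In endothelium iSuRe-HadCre heart was highest for Col4a1, Col4a2 and Col15a1 (7.85%), control heart for Col18a1 (3.91%) and iSuRe-Cre liver for Col13a1 (6.57%). The other 3 endothelial groups were highest for 0, where the background was 11.3% (control liver), 9.01% (iSuRe-HadCre liver) and 4.16% (iSuRe-Cre heart).

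Collagen IV led every endothelial group. Col4a1 encodes the alpha 1 chain of the common basement membrane trimer, which joins alpha 1 and alpha 2 chains. Its level was 1356 CPM (1266 to 1450) in control liver, 660 (643 to 676) in iSuRe-Cre liver and 1278 (1195 to 1366) in iSuRe-HadCre liver. The heart groups stood at 2183 (control, 2131 to 2236), 1817 (iSuRe-Cre, 1789 to 1847) and 2484 CPM (iSuRe-HadCre, 2429 to 2540). All heart groups were thus above all liver groups, control and iSuRe-HadCre liver had overlapping intervals, and iSuRe-Cre was lowest within each organ. Free RNA held 428 CPM of Col4a1, less than every endothelial group, and its estimated share was uneven. Among heart cells the share was 15.1% for iSuRe-Cre, 2.46% for control and 2.04% for iSuRe-HadCre. Among liver cells it was 13.5%, 5.91% and 19.4% in the same order. By other marker lists the estimates for iSuRe-Cre heart, control liver and iSuRe-HadCre liver are too high, as given above. The part of free RNA in the order of the heart groups was not tested. Nearly every heart cell had a Col4a1 UMI (98.1% to 99.6%), and after thinning each cell to 2000 UMIs the share was 90.3% to 94.8%. In liver 76.3% to 90.4% of cells had one, or 58.7% to 62.3% after thinning. Erythroid reference cells, gated by Klf1, Rhag and Hemgn and not known to make collagen, stood at 10.7 CPM of Col4a1, with 27.1% of them holding a UMI of it. Their median depth was 48524, and thinning brought the share to 8.88%.

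Col4a2 followed Col4a1 through the groups. It was at 636 CPM in control liver, 330 in iSuRe-Cre liver, 668 in iSuRe-HadCre liver, 1036 in control heart, 848 in iSuRe-Cre heart and, at the top, 1202 in iSuRe-HadCre heart. The UMI ratio of Col4a1 to Col4a2 lay between 1.91 and 2.14 in these 6 groups and the intervals of all 6 overlapped, those of iSuRe-Cre heart (2.08 to 2.21) and iSuRe-Cre liver (1.92 to 2.09) least. Outside endothelium it was 1.65 (1.42 to 1.93) in Krt5 cells, 1.46 (1.16 to 1.86) in Matn4 cells, 1.81 (1.68 to 1.95) in Prrx1 cells and 2.19 (1.81 to 2.66) in Myh11 cells, against 1.74 in free RNA. In the collagen IV chains of other membranes the pairs were unequal as well: the ratio of Col4a5 to Col4a6 was 2.55 in Krt5 cells and 4.75 in Prrx1 cells, and Col4a3 and Col4a4 stayed at 11.7 CPM or less in every endothelial group.

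**Figure D3:**
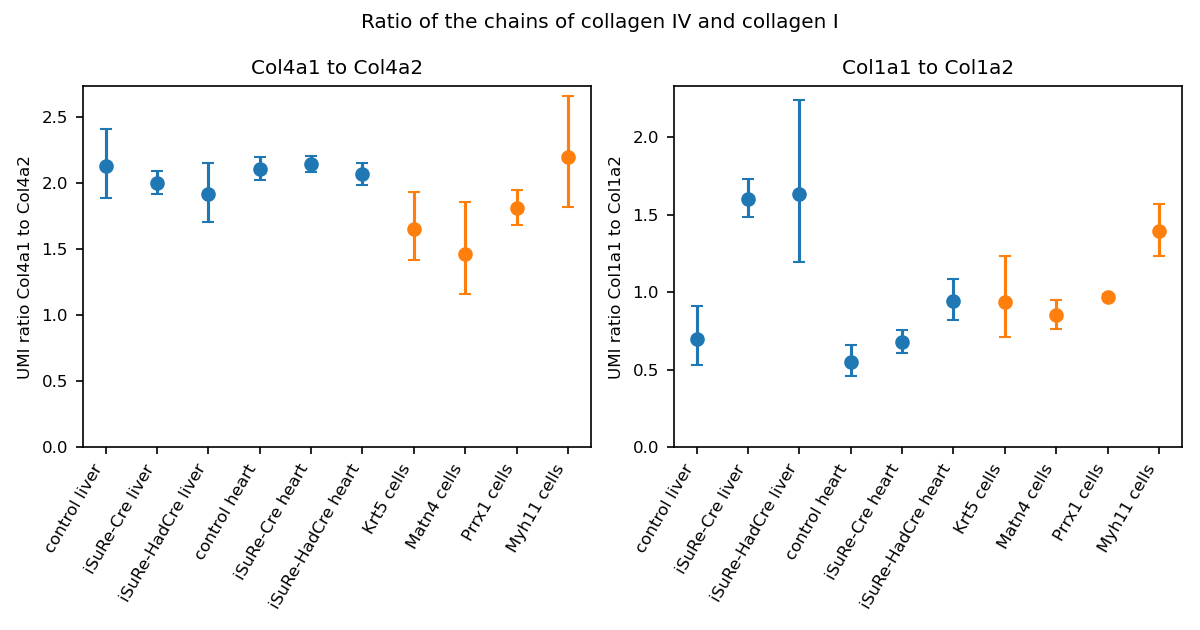
Points give the UMI ratio of Col4a1 to Col4a2 (left) and of Col1a1 to Col1a2 (right) in the endothelial groups (blue) and 4 of the gates (orange), with exact 95% intervals from the counts; Prph cells, with 4 UMIs of each collagen IV chain, are left out. The collagen IV ratio is 1.91 to 2.14 in endothelium, whereas the collagen I ratio spreads from 0.552 to 1.63.

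The multiplexins accompanied collagen IV in endothelium. Col18a1, whose C-terminal fragment is endostatin, was at 159 CPM in control liver, 64.4 in iSuRe-Cre liver, 218 in iSuRe-HadCre liver, and in heart at 248 (control), 146 (iSuRe-Cre) and 191 (iSuRe-HadCre). Krt5 cells reached 156 (144 to 168), the same range as iSuRe-Cre heart and control liver, and Prrx1 cells 15.8. Col15a1, a capillary and muscle basement membrane collagen, was at 104, 16.5 and 95.2 CPM in control, iSuRe-Cre and iSuRe-HadCre liver. In heart it was at 144, 107 and 149 CPM in the same order, and no gate exceeded 14.0. So Col15a1 was the more restricted of the pair, and iSuRe-Cre liver stood below free RNA (34.7 CPM) for it.

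**Figure D4:**
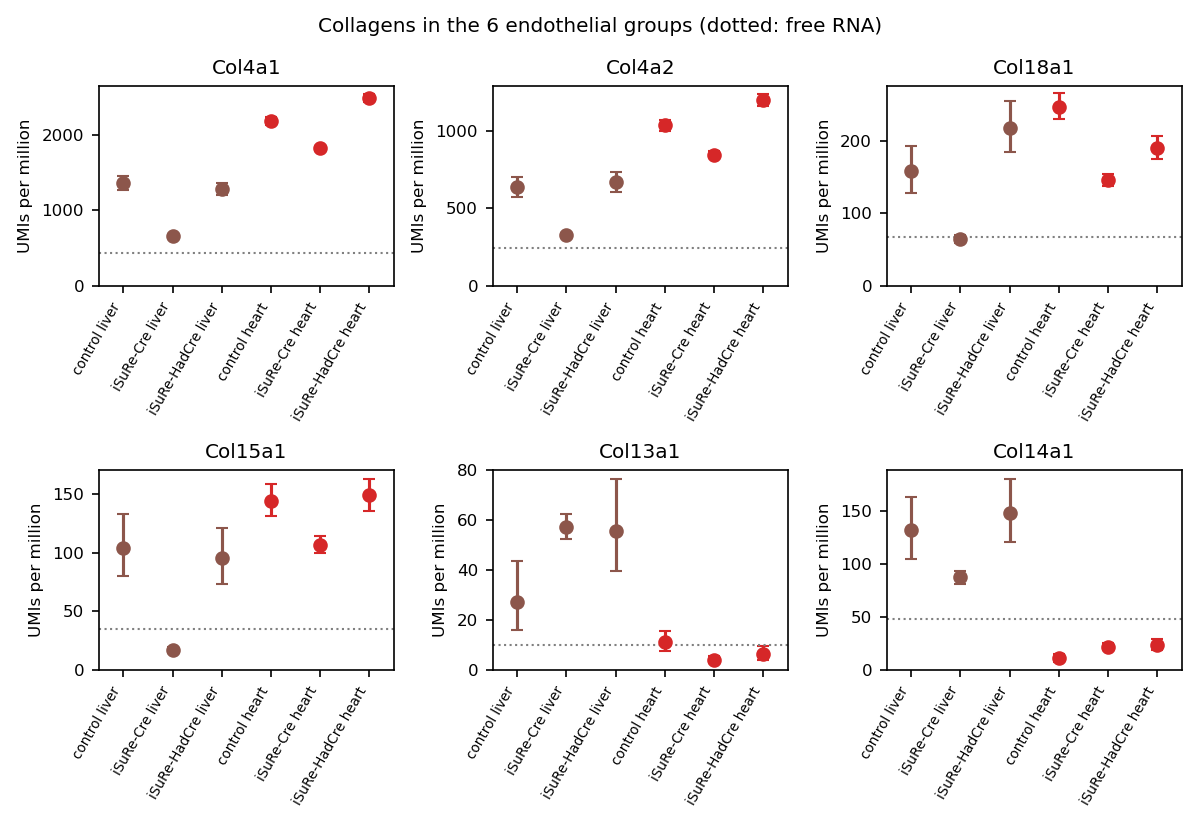
Each panel gives the level (CPM, axis from 0) of 1 collagen in the 6 endothelial groups, liver brown and heart red, with exact 95% Poisson intervals and the level in free RNA as a dotted line. Col4a1, Col4a2 and Col15a1 are lower in iSuRe-Cre liver than in the other 5 groups, and Col13a1 and Col14a1 are higher in each liver group than in each heart group.

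The fibrillar genes were unevenly present in endothelial groups and mostly near or below free RNA. Col1a1, a chain of collagen I, was at 64.4 to 182 CPM against 311 in free RNA, with UMIs in 13% to 29.5% of cells, and up to 111 UMIs came from 1 cell of iSuRe-HadCre heart. Col1a2 was at 99.4 to 221 CPM and Col3a1 at 83.2 to 282, against 283 and 336 in free RNA. The ratio of Col1a1 to Col1a2 was 1.60 (1.48 to 1.73) in iSuRe-Cre liver and 1.63 (1.20 to 2.24) in iSuRe-HadCre liver, but 0.552 (0.461 to 0.660) in control heart and 0.696 (0.530 to 0.909) in control liver, a wider spread than that of the collagen IV pair. Col5a2, a regulatory fibril chain, stood apart: it was at 369 CPM in control liver and 205 in iSuRe-HadCre liver, above free RNA (163), with UMIs in 55.6% and 53.9% of cells. In control liver 145 of its 230 UMIs came from 12 cells with at least 3 UMIs of Npr3, a marker of endocardium. The 35 control liver cells with 0 Npr3 UMIs were at 177 CPM. The ratio of Col3a1 to Col5a2, neighbours on chromosome 1, was 0.721 to 1.16 in the 6 endothelial groups but 2.96 (2.87 to 3.04) in Prrx1 cells and 3.73 (3.17 to 4.42) in Myh11 cells.

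Prrx1 cells were the main collagen I and III cells. Prrx1 is a transcription factor of limb, craniofacial and other connective tissue mesenchyme. Col1a2 was at 1175 CPM (1159 to 1192), Col1a1 at 1138 (1122 to 1154) and Col3a1 at 1137 (1121 to 1153), so that the last pair did not differ beyond counting error. Of the 41 collagens with at least 20 UMIs over both groups, 23 were at least 2-fold higher than in the summed endothelial groups with 10 CPM added, against a background of 6.25% of all genes, and 4 were lower (8.61%). Their median log2 difference was 1.16, against 0.06 over all 14857 genes compared. Besides collagens I and III the higher ones included Col5a1 (142 CPM), all 3 main collagen VI chains (111, 115 and 117 CPM for Col6a1, Col6a2 and Col6a3), Col12a1 (185), Col24a1 (75.8) and Col26a1 (107). The 4 lower ones were the endothelial set Col4a1 (120), Col4a2 (66.5), Col15a1 (5.11) and Col18a1 (15.8). A single cell held 1221 of the 19387 Col1a1 UMIs, while 88.5% of the cells had a UMI of Col1a1 and 90.9% one of Col3a1.

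Myh11 cells, gated by the smooth muscle myosin heavy chain, combined fibrillar collagens with collagen IV and VI. Col3a1 was at 873 CPM (808 to 941), Col1a1 at 842 (779 to 909) and Col1a2 at 604 (551 to 661). They had the highest Col6a1 (143) and Col6a2 (170) of all groups, with intervals (118 to 172 and 142 to 201) above those of every other group, and Col6a3, the third chain, was at 97.1. Col4a1 was at 451 CPM, the highest outside endothelium. Of 40 collagens compared, 14 were higher than in endothelium (background 5.92%) and 5 lower (9.58%), with a median log2 difference of 0.18 against -0.01 for all genes. Col23a1, a transmembrane collagen, was highest here (156 CPM), and Col2a1 was at 3.83 CPM, from 3 UMIs.

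Matn4 cells held the collagens of cartilage. Matn4 is a matrilin, an adaptor protein of cartilage and other matrix. Col2a1, the chain of the main cartilage fibril, was at 1725 CPM (1667 to 1785), 91.7-fold the summed endothelial level, and Col11a1 at 1549. The 3 chains of collagen IX, which coats that fibril, were at 752 (Col9a1), 454 (Col9a2) and 1039 (Col9a3) CPM, and Col11a2 at 122. Of 40 collagens compared, 20 were higher than in endothelium (background 6.14%) and 4 lower (9.58%), with a median log2 difference of 1.00 against 0.01 for all genes. These genes followed Acan within the gate, a split made after the values were seen: the 62 cells with Acan had 2820 CPM of Col2a1, 2506 of Col11a1 and 215 of Col11a2, and the 68 without it 482, 462 and 16.6. Fabp7 did not, at 542 CPM with Acan and 684 without. Prrx1 cells were the next highest gate for Col2a1 (67.3 CPM) and Col11a1 (249).

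Krt5 cells had few collagen transcripts but a set of their own. Krt5 is a keratin of basal epithelial cells, which anchor to a basement membrane. Col17a1, the hemidesmosomal transmembrane collagen, was at 69.9 CPM (62.4 to 78.1) in Krt5 cells and at 3.32 or less in every other group, with UMIs in 54.2% of the cells. Col7a1, which forms the anchoring fibrils beneath that membrane, was at 16.0 CPM against 4.11 or less elsewhere among the 11 groups. Col4a5 (85.5 CPM), Col4a6 (33.5) and Col19a1 (50.2) were also highest here, while Col18a1 (156) led the group and Col4a1 was at 98.6. Of 40 collagens compared, 7 were higher than in endothelium (background 4.82%) and 13 lower (12.3%), with a median log2 difference of -0.46 against -0.07. The 5 collagens just named other than Col18a1 and Col4a1, with Col8a1 (39.3) and Col12a1 (57.7), are the 7.

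Prph cells had the fewest collagen UMIs, 100 over 15 cells. Prph encodes the neuronal intermediate filament peripherin. Their 3 highest collagens were Col3a1 (58.5 CPM, 18 of 20 UMIs from 1 cell), Col1a2 (35.1) and Col1a1 (32.2). Of 40 compared, 1 was higher than in endothelium (background 11.9%) and 16 lower (13.8%), with a median log2 difference of -0.66 against -0.07. The 1 higher was Col9a2, at 26.3 CPM from 9 UMIs. For Col15a1 the count was 0, which allows up to 8.77 CPM (3 UMIs), against 82.5 CPM in the endothelial sum.

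In heart only 1 collagen, in iSuRe-HadCre, was called against control. Between iSuRe-Cre and control heart none of the 33 collagens compared differed at least 2-fold, where 1.45% of all genes were higher and 0.747% lower. Their median log2 difference was 0.06, against -0.04 over all genes. Between iSuRe-HadCre and control heart 1 of 31 was higher, Col2a1, at 19.0 against 3.96 CPM (background 1.23% higher, 0.183% lower), with a median of 0.24 against 0.09. Col2a1 rested on 12 UMIs in 11 control cells, and its log2 difference of 1.06 fell to 0.66 without cells of 6000 or more genes and to 0.53 as a mean over cells, below the 2-fold call. Chondrocyte markers summed to 42.5 CPM against 17.5 in control, and their part in it was not tested. Of the basement membrane genes Col18a1 was lower in both, short of 2-fold: the ratio to control of Col4a1 was 0.833 (0.809 to 0.857) for iSuRe-Cre and 1.14 (1.10 to 1.18) for iSuRe-HadCre, and that of Col18a1 0.589 (0.537 to 0.646) and 0.770 (0.690 to 0.858). Summed FACIT collagens were at 84.8 CPM in iSuRe-HadCre and 54.0 in iSuRe-Cre heart, against 32.0 in control heart. Fibrillar ones were at 677 and 423 against 498 CPM. The estimated free RNA share was 15.1% in iSuRe-Cre heart, too high by its neutrophil markers, against 2.46% in control heart. The part of free RNA in these differences was not tested. Both comparisons use the same control cells.

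In liver every called collagen was lower than in control. Between iSuRe-Cre and control liver 10 of 35 collagens were at least 2-fold lower (background 3.33%) and 0 higher (2.2%), with a median log2 difference of -0.83 against -0.05 over all genes. They included the basement membrane genes Col4a1 (660 against 1356 CPM, ratio 0.487, 0.453 to 0.523), Col15a1 (16.5 against 104, 0.158, 0.118 to 0.215) and Col18a1 (64.4 against 159, 0.406, 0.328 to 0.508), and the fibril genes Col3a1 (107 against 282) and Col5a2 (127 against 369). The other 5 were Col2a1, Col4a5, Col11a1, Col22a1 and Col25a1, whose control levels came from few cells. Of the control UMIs 1 cell gave 32 of 40 for Col2a1, 20 of 23 for Col4a5, 24 of 53 for Col11a1, all 15 for Col22a1 and 77 of 84 for Col25a1. Without cells of 6000 or more genes these 5 were no longer lower (log2 0.90, 0.19, 1.21, 0.14 and 0.84), while Col4a1 and Col15a1 were at -1.05 and -2.13, close to their -1.03 and -2.11 with all cells.

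The control liver cells also differed in kind. Vwf, a gene of larger vessels and endocardium, had at least 3 UMIs in 29 of 54 cells of control liver against 182 of 858 of iSuRe-Cre liver, and Stab2 had a UMI in 12 against 618. Npr3, a marker of endocardium, had at least 3 UMIs in 12 cells of each group. In cells with 0 Npr3 UMIs Col5a2 was at 177 CPM in control and 108 in iSuRe-Cre liver, and Col3a1 at 254 and 93.9. Restricted to liver cells with a Stab2 UMI, the log2 difference of Col4a1 was -0.90, of Col15a1 -2.48, of Col18a1 -2.32 and of Col5a2 -1.94, and restricted to cells with 0 Vwf UMIs it was -1.83, -3.01, -0.83 and -0.88. All 4 kept their direction in both, on 12 and 16 control cells, but Col4a1 with Stab2 and Col18a1 and Col5a2 without Vwf were then short of 2-fold. Col4a1 and Col3a1 also fell short of it in other settings, to -0.72 and -0.77 at the least. Chondrocyte markers were at 122 CPM summed in control liver, against 47.9 in iSuRe-Cre liver, and 5 of the 9 had a UMI in control liver, with Matn1, Matn3, Snorc and Comp at 0. Their part in the differences of Col2a1 and Col11a1 was not tested. Macrophage markers (14.4 against 198 CPM) and neutrophil markers (276 against 2070) were lower in control liver, whereas peripheral neuron markers (588 against 143) and smooth muscle markers (133 against 53.6) were higher there. Their part in the collagen differences was not tested.

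Between iSuRe-HadCre and control liver 3 of 24 collagens were lower (background 2.17%) and 0 higher (1.5%), with a median log2 difference of -0.23 against 0.00. They were Col1a2 (99.6 against 221 CPM, 0.450, 0.332 to 0.606), Col4a5 (13.2 against 36.9, from 9 and 23 UMIs) and Col25a1 (35.1 against 135). Of the 3 only Col1a2 kept its direction without cells of 6000 or more genes, at a log2 difference of -0.59, short of 2-fold. Col4a1 (ratio 0.943, 0.857 to 1.04), Col4a2 (1.05, 0.915 to 1.20) and Col15a1 (0.914, 0.638 to 1.31) did not differ from control beyond counting error, and Col18a1 was at 1.38 (1.06 to 1.79).

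Compared directly, iSuRe-HadCre liver exceeded iSuRe-Cre liver in 4 of 32 collagens (background 2.11%), with 0 lower (1.68%). These were Col15a1 (ratio 5.77, 4.25 to 7.76), Col18a1 (3.39, 2.81 to 4.06), Col11a1 (4.47, 3.51 to 5.64) and Col2a1 (3.74, 2.73 to 5.07), and Col4a1 was at 1.94 (1.80 to 2.08). For Col11a1 51 of 97 and for Col2a1 44 of 55 UMIs of iSuRe-HadCre liver came from 1 cell, and without cells of 6000 or more genes Col2a1 was at a log2 difference of -0.19. The groups also differed in marker lists, with chondrocyte markers at 93.7 CPM in iSuRe-HadCre against 47.9 in iSuRe-Cre liver, neutrophil markers at 30.7 against 2070 and hepatocyte markers at 76.1 against 636, and in cells with Stab2 (24 of 76 against 618 of 858). Their part in these differences was not tested. In heart 1 of 36 was higher in iSuRe-HadCre, Col8a1, a subendothelial network collagen, at 21.9 against 4.82 CPM (background 1.46% higher, 0.744% lower). Median log2 differences were 0.38 in liver and 0.32 in heart, against 0.04 and 0.13 over all genes.

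Col13a1 and Col14a1 were higher in liver than in heart endothelium under every genotype. Col14a1, a FACIT collagen, was at 131, 87.0 and 148 CPM in control, iSuRe-Cre and iSuRe-HadCre liver and at 10.6, 21.3 and 23.2 CPM in heart. It was the 1 of 26 collagens compared in all 3 pairs that was at least 2-fold higher in liver each time, where 0.951% of all genes were, and 0 were lower each time (0.333%). Col13a1, a transmembrane collagen of cell adhesion sites, was at 27.2, 57.2 and 55.6 CPM in liver and 10.9, 3.73 and 6.12 in heart, called in the 2 iSuRe pairs. Within control, 9 of 27 collagens were higher in liver (background 4.65%) and 0 lower (1.55%), with a median log2 difference of 0.87 against 0.09. Besides Col14a1 these were Col1a1, Col2a1, Col4a5, Col5a2 (369 against 121 CPM), Col9a3, Col11a1, Col25a1 and Col26a1. Without cells of 6000 or more genes only Col5a2 (log2 1.69) and Col14a1 (3.17) of these stayed 2-fold higher, while Col1a1 was at 0.75, Col2a1 at 0.30 and Col9a3 at 0.35, and Col4a5 (-0.30), Col11a1 (-0.21), Col25a1 (-0.81) and Col26a1 (-0.25) reversed. In control liver 1 cell gave 77 of 84 UMIs of Col25a1 and 32 of 40 of Col2a1. Within iSuRe-Cre, 3 of 38 were higher (3.28%) and 4 lower (1.76%), the higher ones being Col1a1, Col13a1 and Col14a1 and the lower ones Col4a1 (ratio 0.363, 0.352 to 0.374), Col4a2 (0.389), Col15a1 (0.154) and Col18a1 (0.442). Within iSuRe-HadCre, 5 of 29 were higher (2.27%) and 0 lower (1.83%): Col2a1, Col9a1, Col11a1, Col13a1 and Col14a1. Without cells of 6000 or more genes Col2a1 (0.35) and Col9a1 (0.26) were no longer 2-fold higher, and 44 of 55 Col2a1 UMIs of this liver group came from 1 cell. The medians there were 0.20 and 0.24, against 0.08 and -0.01 over all genes. Chondrocyte markers summed to 122, 47.9 and 93.7 CPM in the 3 liver groups and 17.5, 38.8 and 42.5 in the heart groups, and their part in the differences of Col2a1, Col9a1, Col9a3 and Col11a1 was not tested. In cells with 0 Vwf UMIs the log2 difference of Col14a1 between control liver and control heart was -0.65, and none of its UMIs came from the 16 control liver cells without Vwf. The iSuRe-Cre pair fell from 1.63 to 0.20 in cells with 0 Vwf UMIs and to 0.37 with only Stab2 liver cells, where control was at 0.77, and Col13a1 in the iSuRe-HadCre pair was at 0.71 with 0 Vwf UMIs.

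Within the groups the collagens varied with vessel type genes, in splits chosen after levels were seen and given for description. Cells with at least 3 UMIs of Vwf had less Col4a1 than cells with 0 in each of the 5 groups with at least 5 such cells: 469 against 2883 CPM in control liver, 364 against 804 in iSuRe-Cre liver, 558 against 2074 in iSuRe-HadCre liver, 542 against 1956 in iSuRe-Cre heart, with 1183 against 2628 in iSuRe-HadCre heart. Col15a1 was lower in them in all 5 too, for instance 29.0 against 258 CPM in control liver and 26.5 against 117 in iSuRe-Cre heart. Col5a2 went the other way in all 5, with 501 against 132 CPM in control liver, 238 against 67.4 in iSuRe-Cre liver, 255 against 149 in iSuRe-HadCre liver, 493 against 52.5 in iSuRe-Cre heart, with 521 against 105 in iSuRe-HadCre heart. Col14a1 was higher with Vwf in the liver groups (216 against 0, 245 against 19.3 and 206 against 81.9 CPM) and in iSuRe-Cre heart (69.2 against 15.5), and at 25.4 against 24.9 in iSuRe-HadCre heart. The Vwf cells numbered 29, 182, 28, 28 and 7.

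**Figure D5:**
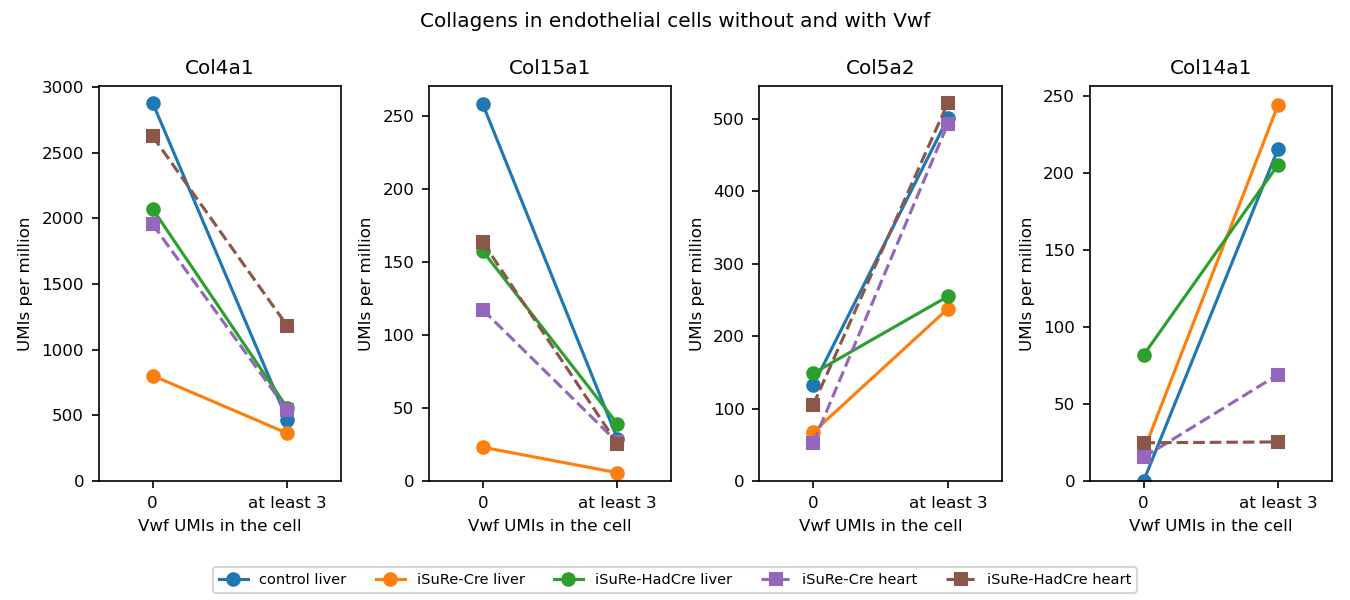
Lines join the level (CPM, axis from 0) of 4 collagens in endothelial cells with 0 and with at least 3 Vwf UMIs of 5 groups, liver as solid lines with circles and heart as dashed lines with squares; control heart had under 5 cells with Vwf, and intervals are not drawn. Col4a1 and Col15a1 slope down and Col5a2 up in all 5 groups.

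Npr3, a natriuretic peptide receptor and marker of endocardium, gave a similar split. Cells with at least 3 Npr3 UMIs had 572 CPM of Col4a1 against 2305 in control heart (9 and 238 cells), 645 against 1971 in iSuRe-Cre heart (41 and 374) and 443 against 2792 in iSuRe-HadCre heart (14 and 278). Col1a2, Col3a1 and Col5a2 were higher in them instead. Col1a2 was at 417 against 95.3 CPM in control heart, 372 against 73.5 in iSuRe-Cre heart, with 635 against 89.7 in iSuRe-HadCre heart. Col3a1 was at 857 against 76.8, 206 against 70.2 and 605 against 117, and Col5a2 at 789 against 79.1, 526 against 59.5 and 596 against 91.3. In the liver groups with at least 5 Npr3 cells, control and iSuRe-Cre, the directions for these 4 genes were the same, with 12 such cells in each. Col1a1 did not follow throughout, being higher with Npr3 in control heart (206 against 55.0 CPM) and iSuRe-HadCre heart (677 against 77.1), at 69.6 against 68.5 in iSuRe-Cre heart (ratio 1.02, 0.739 to 1.37), at 199 against 151 in control liver and lower in iSuRe-Cre liver (62.4 against 181).

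Sinusoidal liver cells had their own pattern within the liver groups. In iSuRe-Cre liver the 514 cells with at least 3 Stab2 UMIs had 708 CPM of Col4a1 and the 240 with 0 had 564. Col13a1 was at 74.9 CPM with Stab2 and 25.2 without (ratio 2.97, 2.28 to 3.93), whereas Col14a1 was at 25.6 against 242, Col15a1 at 8.99 against 31.7 and Col18a1 at 47.8 against 83.3. In iSuRe-HadCre liver, with 15 and 52 such cells, Col13a1 was again higher with Stab2 (157 against 37.3 CPM) and Col14a1 lower (36.9 against 166), but Col4a1 was lower (848 against 1465). With Stab2 the 2 collagens thus went opposite ways in both groups. With Vwf they did so only in iSuRe-Cre liver, where Col13a1 was at 38.5 CPM in Vwf cells and 60.4 in cells with 0 (ratio 0.637, 0.504 to 0.798). In iSuRe-HadCre liver Col13a1, like Col14a1, was higher with Vwf (104 against 15.2 CPM, 6.89, 2.67 to 22.7), and control liver had 36.9 against 6.01 CPM, from 14 UMIs and 1.

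The genes that modify, export and cross-link collagen moved less between the endothelial groups than between cell types, as genes at large did. Over all genes 0.183% to 4.65% were called per direction between endothelial groups, and 4.82% to 13.8% in gates against endothelium. Sparc, a matricellular protein that binds collagens I and IV, was the highest of them, at 4003 to 4916 CPM in heart endothelium, 1848 to 2786 in liver endothelium and 84.8 to 1048 in the gates. It was at least 2-fold lower in liver than in heart within control and iSuRe-Cre. Serpinh1, the collagen chaperone HSP47, was at 847 CPM in Matn4 cells, 700 in Prrx1 cells, 308 to 613 in endothelium, 228 in Krt5 cells and 40.9 in Prph cells. Plod1, a lysyl hydroxylase, was higher in endothelium (104 CPM summed) than in Matn4 (52.8), Prrx1 (26.9), Myh11 (12.8), Krt5 (4.66) and Prph cells (5.85).

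Of the 19 modification and folding genes 0 were called in either direction between each iSuRe group and control heart, 7 were higher and 0 lower in Matn4 cells than in endothelium, with Plod2 at 246 against 49.2 CPM and P4ha3 at 36.7 against 3.43, and 13 were lower and 0 higher in Prph cells. Over all genes 1.45% were higher and 0.747% lower in iSuRe-Cre than in control heart, and 1.23% and 0.183% in iSuRe-HadCre heart. In Matn4 cells 6.14% of all genes were higher and 9.58% lower than in endothelium, and in Prph cells 11.9% and 13.8%. Of the 18 export, processing and cross-linking genes Prrx1 cells had 4 higher and 1 lower of 17 compared, among them Lox (57.2 against 14.4 CPM) and Loxl1 (27.1 against 3.71), which oxidise lysines for cross-links. Myh11 cells had 6 higher and 2 lower, with Lox at 76.7 and Loxl1 at 42.2. The shares over all genes were 6.25% higher and 8.61% lower in Prrx1 cells, and 5.92% and 9.58% in Myh11 cells. Against control heart the only one called was Lox in iSuRe-HadCre heart (21.9 against 5.94 CPM). In iSuRe-Cre liver P3h3, Bmp1 and Tll1 were lower than in control, Bmp1 and Tll1 being proteases that cleave the C-propeptide of fibrillar procollagens (12.7 against 49.7 and 10.2 against 54.5 CPM), and in iSuRe-HadCre liver Loxl2 was (35.1 against 86.5). Of the 11 degradation genes and receptors the collagen receptor Ddr1 was at 73.9 CPM in Krt5 cells and Ddr2 at 143 in Prrx1 cells, against 5.18 and 14.6 in endothelium, and Timp3, a matrix-bound protease inhibitor, was at 618 CPM in iSuRe-HadCre and 205 in iSuRe-Cre liver.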

How the data were processed

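The labels list 2 samples, the gene reads and the hashtag reads of 1 droplet library. The authors deposited an unfiltered table of UMI counts per barcode, made with Cell Ranger 7.1.0 on GRCm38 (mm10) with transgenes added, per the labels and the study's methods. Seurat is named in the submitters' notes, version not given. Chemistry and strand are not given in the sources used here.

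Barcodes with 2000 to 75000 gene UMIs, more than 500 genes and mitochondrial and haemoglobin shares under 5% were kept. A hashtag was assigned at 25 UMIs or more (140 for the iSuRe-Cre liver hashtag) with the others below their minimums, which removes doublets whose hashtags both reach them. Doublets with a cell below its minimum or without a hashtag can remain. Endothelial cells had Cdh5 above 0.9 as the natural log of 1 plus UMIs per 10000. No doublet caller was run, and gates excluded only cells positive for another gate marker or Cdh5. The 7 features of hashtags without a group were not used.

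Levels are summed UMIs per 1000000 gene UMIs (CPM) with exact Poisson intervals, ratios have exact conditional intervals and shares exact binomial (Clopper-Pearson) intervals, all at 95%. Shares of cells were also given after thinning to 2000 UMIs per cell. A difference was called at 2-fold with 10 CPM added and at least 20 UMIs over both groups. Free RNA came from barcodes of 10 to 100 UMIs. Its share was estimated from hepatocyte markers in heart groups, cardiomyocyte markers in liver groups and both lists in other cells. Since each group is 1 sample, no test was run. Named in full were the 12 collagens with the highest level in any group, the 3 highest of each group, those called against control and the chain pairs of 1 protein. Of the processing genes, those called and those highest in their list were named, and Serpinh1, Plod1, Plod2, P4ha3, Loxl1, Ddr1 and Ddr2 are examples among these or chosen after their values were seen. Other collagens were named to give the called or highest sets whole.

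The members, gene lists and gates were chosen with earlier results of these data known. Alternatives changed the Cdh5, WPRE, hashtag, gene and mitochondrial limits, the gate minimums and exclusion, the scaling, the added CPM, the reference group and free RNA. The calls and intervals were run on simulated Poisson counts drawn from group totals. Such counts hold no variation between cells or mice. The simulation therefore cannot show how the intervals behave where 1 cell gives most UMIs of a gene. Gene positions came from GENCODE on GRCm38 and promoter sequences from RefSeq on GRCm38.p6. Python 3.11.15 with numpy 2.4.6, scipy 1.17.1 and matplotlib 3.10.9 was used.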

Additional observations from a re-analysis of the deposited data

Results flagged for a closer look

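A few collagens stood above control in one organ and below it in the other under the same allele, with counting intervals on opposite sides of 1. These differences between organs were not tested, and the liver side always uses the 54 control liver cells. The ratio to control of Col1a2 in iSuRe-HadCre was 1.20 (1.04 to 1.39) in heart and 0.450 (0.332 to 0.606) in liver. In iSuRe-Cre the ratio of Col2a1 was 3.19 (1.75 to 6.38) in heart and 0.336 (0.238 to 0.484) in liver, and that of Col11a1 1.68 (1.20 to 2.39) and 0.374 (0.279 to 0.511). The liver side of both leaned on 1 control cell, as given above. Without cells of 6000 or more genes it reversed, to log2 differences of 0.90 for Col2a1 and 1.21 for Col11a1. As a mean over cells these were 0.49 and 0.59. For Col22a1 it was 6.93 (1.10 to 288) in heart, from 1 control UMI, and 0.0490 (0.0204 to 0.114) in liver, where 1 control cell held all 15 UMIs.

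Cdh5 cells that reached no hashtag minimum enter no comparison. Among the collagens Col12a1 was the 1 whose level in them, 32.1 CPM, was at least 2-fold above both control groups with 10 CPM added. Control liver was at 8.0 CPM, control heart at 10.9 and free RNA at 56.4.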

How the results depend on the processing

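No paired analysis was possible because each group is 1 sample and no test was run. Control liver, with 54 cells, limits every liver comparison with control, and no interval covers variation between mice.

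Over the processing settings named above 1092 values of single differences stayed within the counting interval, 361 moved and 17 reversed. The number of collagens at 10 CPM in endothelium, 30, stayed between 28 and 32. Counts from here on add the calls of all pairs of a kind, so 1 collagen can count more than once. Shares over all genes were not computed for such sums. Against control 1 call was higher and 13 lower, and 5 were higher and 0 lower in iSuRe-HadCre than iSuRe-Cre. In liver against heart 17 calls were higher and 4 lower, and in gated cells 65 were higher and 42 lower. With at least 1 Cdh5 UMI, 13 were higher against control, 11 in iSuRe-HadCre over iSuRe-Cre, and 9 lower in liver than heart. With WPRE required, 8 were higher in iSuRe-HadCre over iSuRe-Cre. Doubled hashtag minimums gave 10 higher against control and 17 between the alleles. A highest hashtag at 3 times the next gave 2 higher against control, fewer than 6000 genes 5 higher and 6 lower, and the mean over cells 4 and 7. With free RNA subtracted, by shares that are too high for some groups, 3 were higher and 27 lower against control, 16 higher between the alleles and 7 lower in liver. With 1 CPM added these were 16 and 29 against control, 12 and 3 between the alleles, 32 and 12 in liver against heart, and 80 lower in gated cells.

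Alternatives added after seeing the data gave 13 higher and 7 lower calls against control in cells with 0 Vwf UMIs, 12 and 2 between the alleles and 8 lower in liver. In liver cells with a Stab2 UMI they gave 2 and 20, 10 and 1, and 9 lower. The cause was not tested for any of these.

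All but 2 of the reversed log2 differences involved control liver. With fewer than 6000 genes, iSuRe-Cre over control liver gave 0.90 for Col2a1, 0.19 for Col4a5, 1.21 for Col11a1, 0.14 for Col22a1 and 0.84 for Col25a1. It gave 0.75 for Col4a5 and 1.17 for Col25a1 in iSuRe-HadCre over control liver, -0.19 for Col2a1 in iSuRe-HadCre over iSuRe-Cre liver, and, in control liver over control heart, -0.30 for Col4a5, -0.21 for Col11a1, -0.81 for Col25a1 and -0.25 for Col26a1. The mean over cells gave 0.49 for Col2a1 and 0.59 for Col11a1 in iSuRe-Cre over control liver. Col25a1 in iSuRe-HadCre over control liver was at 0.21 with doubled hashtag minimums and 0.026 with the highest hashtag at 3 times the next, and Col6a1 in Prph cells at 0.81 with a gate minimum of 2 UMIs. In cells with 0 Vwf UMIs, iSuRe-Cre over control liver gave 0.47 for Col2a1, 0.22 for Col4a5, 0.74 for Col11a1, 0.10 for Col22a1 and 1.08 for Col25a1, iSuRe-HadCre over control liver 0.0052 for Col4a5 and 1.94 for Col25a1, and control liver over control heart -0.17 for Col4a5, -0.083 for Col11a1, -0.65 for Col14a1, -1.18 for Col25a1 and -0.20 for Col26a1. Over the same settings, additions aside, iSuRe-Cre over control liver stayed between -1.11 and -0.72 for Col4a1, -2.59 and -1.77 for Col15a1, -1.76 and -1.004 for Col18a1, -1.83 and -0.77 for Col3a1 and -1.70 and -1.24 for Col5a2.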

Other observations

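The 5585 Cdh5 cells without a hashtag, whose organ and genotype are not known, held 3435 CPM of collagens at a median of 4220 UMIs per cell. Collagen IV took 53.9% of these UMIs and fibrillar collagens 29.6%. Col4a1 was at 1225 CPM, Col4a2 at 601 and Col1a1 at 315, and the UMI ratio of Col1a1 to Col1a2 was 1.78 (1.72 to 1.84). The estimated share of free RNA in them was 38.3%.

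Blood cells gave collagen UMIs as well. Neutrophil reference cells, gated by Ngp and Camp at 10 or more UMIs, held 812 CPM of collagens over 166 cells, with Col1a1 at 160 CPM, and erythroid reference cells 84.1 CPM over 59 cells. The estimated share of free RNA was 19.5% in the neutrophil cells and 4.13% in the erythroid cells. How much of their collagen UMIs it gave was not tested. The ratio of Col1a1 to Col1a2 was 2.45 (1.92 to 3.15) in the neutrophil cells and 3.00 (1.30 to 7.72) in the erythroid cells, from 24 and 8 UMIs.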
